A study of Aphis gossypii with 6 samples.

Results

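Glycosidases are enzymes that cut sugars from other sugars, from plant glycosides or from glycoproteins. Members were taken by a text rule on the product names in the deposited gene table (maltase, glucosidase, sucrase, trehalase, amylase, galactosidase, mannosidase, fucosidase, hexosaminidase, glucuronidase, lactase or myrosinase, leaving out names with transporter or chitin). The rule found 75 of 14013 genes. Of these, 11 are tubulin polyglutamylases, which add glutamate chains to tubulin and matched only because their name ends in the letters of amylase. The remaining 64 are counted here as glycosidases: 15 maltases, 14 family 1 glycosidases, 5 trehalases, 19 lysosomal and other exoglycosidases, and 11 genes of N-glycan trimming. Of the last, 2 are named for the beta subunit of glucosidase II, which is regulatory and not itself the cutting enzyme.

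The cotton aphid, Aphis gossypii, was sequenced as RNA from pooled whole bodies in 6 libraries. The resistant strain, labelled RGL, is described with a field population highly resistant to beta-cypermethrin, a pyrethroid insecticide, and gave 3 libraries. The other 3 came from a beta-cypermethrin-sensitive strain, labelled SGL and given the genotype WT. The study compares the strains without an insecticide exposure, and the labels give no age or morph for the pooled aphids. Whether the strains had met the insecticide earlier is not in the labels. The series title places the resistant aphids in a Chinese wolfberry field. With 1 strain per condition, resistance cannot be told apart from any other difference between the strains, and p-values measure the spread between these libraries, which may be technical. In pooled whole bodies, fewer cells of a tissue and less RNA per cell cannot be told apart either.

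Aphids live on phloem sap, whose main sugar is sucrose. In the pea aphid a gut alpha-glucosidase of the maltase family splits sucrose and joins glucose into longer sugars, which lowers the osmotic pressure of the ingested sap. Trehalase splits trehalose, the blood sugar of insects, into glucose. Family 1 glycosidases remove sugars from beta-linked glycosides, and in the cabbage aphid, Brevicoryne brassicae, a member of that family is a myrosinase that splits plant glucosinolates. Lysosomal exoglycosidases take single sugars off glycoproteins and glycolipids, and the glucosidases and mannosidases of the endoplasmic reticulum and Golgi trim the N-linked sugars of new proteins.

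The libraries held 31290134 to 46681719 counts. Resistant replicate 1 stood apart from the other resistant libraries, with a normalization factor of 0.858 against 0.988 and 1.01, so values that rest on it are also given without it. Over the whole table, 21.4% of 11149 tested genes were higher in the resistant strain and 14.4% were lower, or 35.8% in either direction. Of all tested genes 8.31% were higher by at least a factor of 2 and 1.96% lower by as much (edgeR's quasi-likelihood test with a Benjamini-Hochberg adjusted p below 0.05). These percentages are the background for the counts that follow. Scaling by library totals alone shifted the whole table's median log2 fold change by -0.15.

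Among the glycosidases, 62 of 64 had enough counts to be tested. In the resistant strain 42 of them rose and 2 fell, while 18 did not pass the test. Of those 42, 25 rose at least 2-fold, and 1 gene fell as much. The rises thus made up 67.7% of tested glycosidases and the falls 3.23%. The regulatory subunit genes LOC114125085 and LOC114121291 are counted among the rises and the falls, in that order. Also among the rises is Aphis_gossypii_newGene_1057, which had no susceptible count and was kept for testing through the resistant libraries alone. With a low-count filter that left it out, 41 rose, 24 of them at least 2-fold. The median log2 fold change, resistant over susceptible, was 0.82, where the median of all tested genes was -0.00. In 47 of the 62 all 3 resistant libraries lay above all 3 susceptible ones, and in 2 all lay below, where the background for such non-overlap was 28.2% above and 25.8% below. Without resistant replicate 1 the counts were 50 higher and 2 lower, and with library totals alone 34 higher and 2 lower. Counted over all 75 matched genes, 42 rose and 5 fell of 72 tested.

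**Figure D1:**
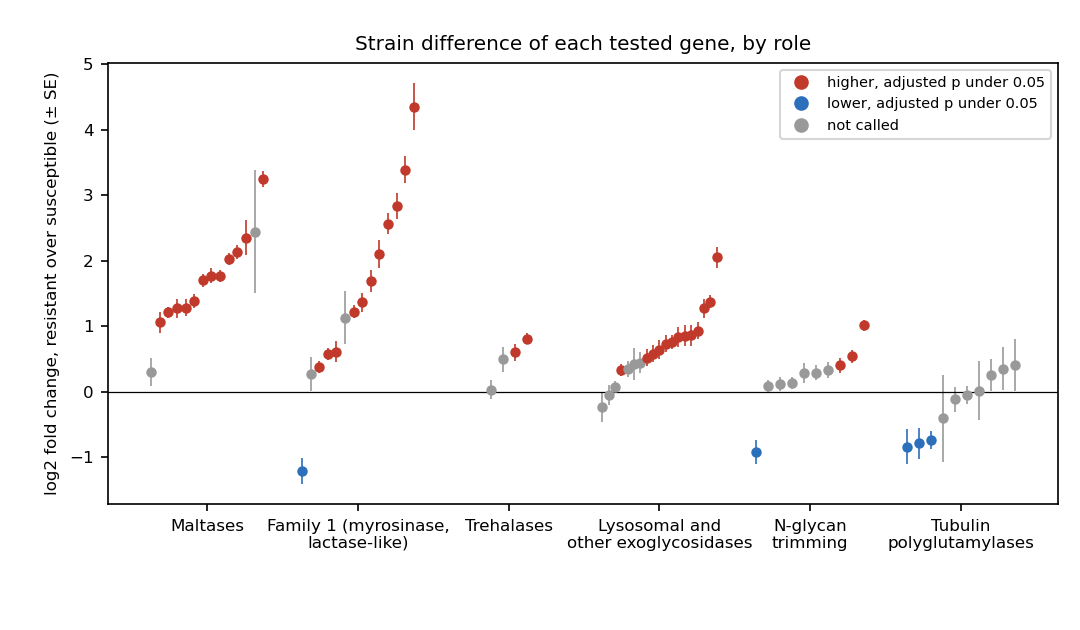
Log2 fold change (resistant over susceptible, error bars SE) of each tested gene on the y axis, grouped by role on the x axis; red marks genes called higher, blue genes called lower and grey genes not called. Maltases and family 1 genes hold the greatest rises, 12 of 14 and 11 of 14 being called higher, and none of the 10 tubulin polyglutamylases is called higher. The alpha-mannosidase 2 fragment without any susceptible count is not drawn.

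The length-scaled level is given as FPKM (fragments scaled by gene length and library depth, as deposited). Averaged over the 6 libraries, 6 glycosidases reached 100 FPKM and 37 of 64 reached 10. The 6 most abundant together held 56.9% of the summed FPKM of all glycosidases. First was the lactase-phlorizin hydrolase-like gene LOC114119870, a family 1 member that alone held 18.6%, with 538 ± 66.9 FPKM in resistant and 253 ± 16.6 FPKM in susceptible libraries (mean ± SD, n = 3 each). The maltases LOC114128183 (300 ± 18.5 and 127 ± 8.7 FPKM) and LOC114128177 (290 ± 4.7 and 98.3 ± 5.49 FPKM) came next. Those 2 maltases and the family 1 gene LOC114119868 (216 ± 15.8 and 160 ± 6.71 FPKM) kept a different order in each strain: LOC114119868 was below both maltases in the resistant strain and above both in the susceptible strain. The 2 maltases did not differ from each other beyond their spread in the resistant strain. Next in order were the maltase LOC114128178 (159 ± 14.5 and 72.4 ± 4.23 FPKM) and the trehalase LOC114127360 (126 ± 9.99 and 79.1 ± 5.33 FPKM).

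**Figure D2:**
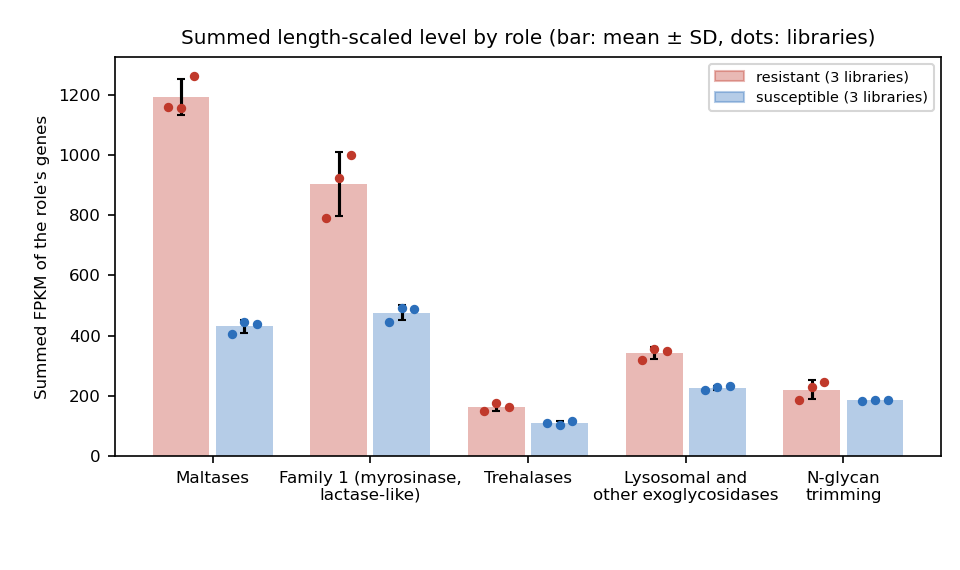
Summed FPKM of all genes of a role on the y axis for the 5 roles on the x axis; bars are strain means with SD error bars, dots are the 3 libraries of each strain. The maltase sum was 1194 ± 59.9 in resistant and 431 ± 21.0 in susceptible libraries, and the N-glycan sums of the strains lie closest.

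Summed over genes, maltases and family 1 genes had similar FPKM in the susceptible strain and parted in the resistant strain. The 15 maltases summed to 407, 445 and 440 FPKM in susceptible replicates 1 to 3 and to 1161, 1158 and 1263 in resistant replicates 1 to 3. Family 1 genes summed to 447, 492 and 488 FPKM in the susceptible and to 790, 924 and 1000 in the resistant libraries. In both roles each resistant library was above each susceptible one, with a ratio of the means of 2.77 for maltases and 1.90 for family 1. The ratio was 1.48 for trehalases, 1.51 for the exoglycosidases and 1.20 for N-glycan trimming. In N-glycan trimming, resistant replicate 1, at 186 FPKM, lay within 2 FPKM of the susceptible libraries at 184, 186 and 185. That closeness did not hold in counts scaled by library depth and also composition (CPM), which the FPKM are not scaled by. The N-glycan sums were then 663 to 735 CPM in the resistant and 519 to 534 CPM in the susceptible libraries, without overlap.

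Maltases showed the most uniform difference between the strains. All 15 carry the alpha-amylase catalytic domain in the table's Pfam annotation. Of the 14 tested, 12 rose, each at least 2-fold, and all 14 log2 fold changes were above 0, with a median log2 fold change of 1.73. With library totals alone 12 rose, 11 of them at least 2-fold, and without resistant replicate 1 the numbers were the same 12 and 11.

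The greatest rise was in LOC114128186, a maltase 2-like gene. Its level was 242, 200 and 216 CPM (counts scaled by library depth and composition) in resistant replicates 1 to 3 and 21.1, 25.6 and 23.2 CPM in susceptible replicates 1 to 3. The groups lay far apart (log2 fold change 3.24 ± 0.12, adjusted p = 3.31e-06, the error being the SE here and below). LOC114128184, another maltase 2-like gene whose protein model is marked as low quality, stood at 136, 109 and 114 CPM in the resistant and 27.9, 27.7 and 26.1 CPM in the susceptible libraries. It rose by 2.13 ± 0.11 on the log2 scale (adjusted p = 1.37e-05). LOC114128190 had 169, 169 and 188 CPM against 44.5, 41.1 and 43.2, a log2 fold change of 2.03 ± 0.09 (adjusted p = 7.56e-06). In each of these genes the lowest resistant library was more than 2 times the highest susceptible one.

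The weakly expressed maltase 2-like gene LOC114127613 rose as steeply from a low level. It had 3.5, 4.12 and 4.56 CPM in the resistant and 0.627, 0.753 and 1.02 CPM in the susceptible libraries (log2 fold change 2.35 ± 0.27, adjusted p = 0.000372). The maltase A3-like gene LOC114128191 went from 18.7, 20.3 and 19.5 CPM to 60.4, 65.1 and 74.1 CPM (1.77 ± 0.11). LOC114132278 rose by 1.77 ± 0.09 on the log2 scale, from a mean of 26.6 to 90.4 CPM. The strains' libraries did not overlap in any of these genes.

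The abundant maltases moved in the same direction by smaller factors. LOC114128177, the probable maltase, had 612, 538 and 521 CPM in the resistant and 161, 176 and 176 CPM in the susceptible libraries (log2 fold change 1.70 ± 0.10, adjusted p = 2.13e-05). LOC114128183, the most abundant maltase per length, had 866, 688 and 770 CPM against 276, 316 and 302 (1.38 ± 0.11, adjusted p = 8.74e-05). Resistant replicate 1 was the highest library for both genes, and the other resistant libraries were still above all susceptible ones. The other 4 maltases that rose, LOC114128178, LOC114127615, LOC114132272 and LOC114127611, had log2 fold changes of 1.28, 1.27, 1.21 and 1.06.

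Of the remaining maltases, LOC114127606 gave 18.1, 14.0 and 10.6 CPM in the resistant and 11.3, 13.2 and 10.1 CPM in the susceptible libraries, and the strains overlapped (log2 fold change 0.30 ± 0.21, adjusted p = 0.302). LOC114119230 had 25 counts in the resistant and 2 in the susceptible libraries together and was not tested. The maltase A3-like gene LOC114128187, singled out here after its values were seen, had no count in susceptible replicate 1 but 442 and 292 counts in susceptible replicates 2 and 3. Its levels were 0, 12.8 and 8.74 CPM there and 32.9, 35.3 and 48.1 CPM in the resistant libraries. All resistant libraries were higher, yet the gene did not pass edgeR's test (2.44 ± 0.94, adjusted p = 0.0753). Without susceptible replicate 1 it did (1.85, adjusted p = 0.00345), and with all libraries it passed by limma-voom. Over the whole table it was the only gene with no count in that library and at least 100 counts in each other library. No source used here gives how reads shared by near-identical copies were counted, and values of single members of these gene families are uncertain for that reason.

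**Figure D3:**
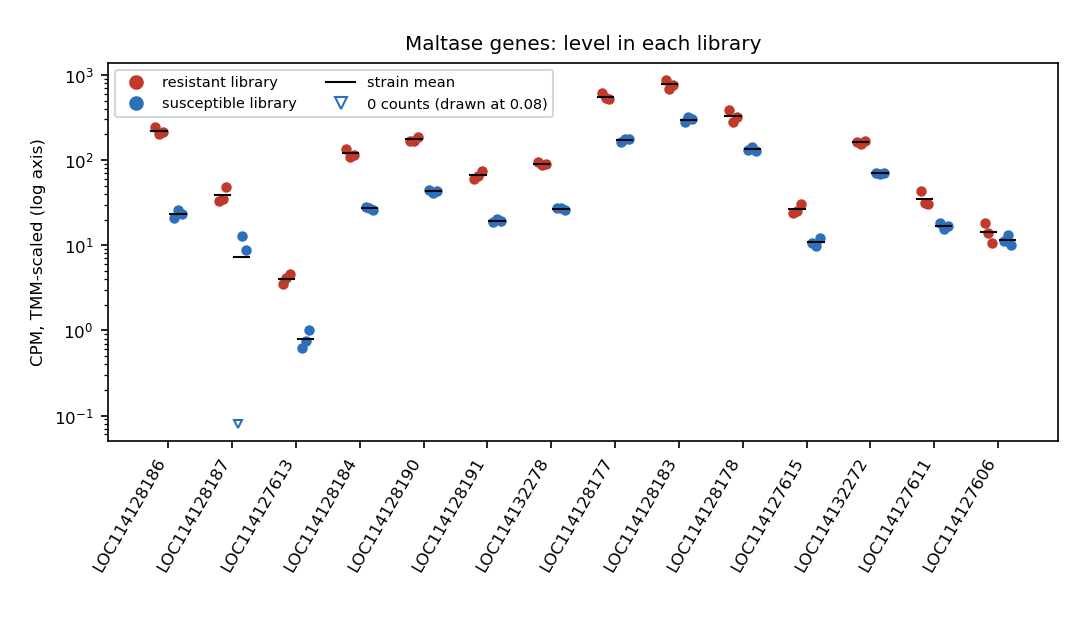
Level of each tested maltase (CPM, log axis) in the 3 resistant (red) and 3 susceptible (blue) libraries, with black bars at strain means, genes ordered by log2 fold change along the x axis. Red points lie above blue points in 13 of 14 genes; the open triangle is the susceptible library with no count for LOC114128187.

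Family 1 glycosidases were the second role with steep rises, and they were less uniform. All 14 carry the family 1 glycosyl hydrolase domain, under the product names myrosinase 1-like and lactase-phlorizin hydrolase-like. Of 14 tested, 11 rose, 8 of them at least 2-fold, and 1 fell, with a median log2 fold change of 1.29. Without resistant replicate 1, 12 rose and 1 fell, and with library totals alone 9 rose and 1 fell.

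The myrosinase 1-like gene LOC114119878 was nearly silent in the susceptible strain, with 7, 7 and 6 counts or 0.183, 0.203 and 0.180 CPM. In the resistant libraries it had 2.68, 4.12 and 4.91 CPM, a log2 fold change of 4.35 ± 0.36 (adjusted p = 8.01e-05), the greatest among glycosidases counted in both strains. LOC114119877 had 16.4, 19.1 and 23.0 CPM in the resistant against 1.52, 2.14 and 1.95 CPM in the susceptible libraries (3.39 ± 0.21, adjusted p = 2.61e-05). Both genes thus went from a trace to a clear level, and in both the lowest resistant library was resistant replicate 1. LOC114119881, with a protein model marked as low quality, stood at 11.4, 16.2 and 14.0 CPM against 1.78, 2.20 and 1.86 (2.83 ± 0.20, adjusted p = 4.14e-05). LOC114119879 reached 56.0, 53.6 and 68.3 CPM from 8.24, 11.7 and 10.3 (2.56 ± 0.16, adjusted p = 2.9e-05).

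LOC114119882, a further myrosinase 1-like gene, had 27.3, 38.0 and 24.3 CPM against 8.29, 5.85 and 6.83 CPM in the susceptible strain (2.10 ± 0.21, adjusted p = 0.000215). Lactase-phlorizin hydrolases are named after a mammalian gut enzyme that splits lactose and plant glycosides. Of the genes so named, LOC114119880 rose by 1.69 ± 0.17 and LOC114119869 by 1.36 ± 0.14 on the log2 scale. The dominant LOC114119870 had 1096, 1063 and 1182 CPM in the resistant and 443, 502 and 488 CPM in the susceptible libraries (1.22 ± 0.10, adjusted p = 7.96e-05). LOC114119868, the other abundant one, rose by 0.57 ± 0.09, from 418 ± 17.2 to 620 ± 16.6 CPM. Smaller rises were found for LOC114121419 (0.61 ± 0.16) and LOC114121404 (0.37 ± 0.09), neither of which passed with library totals alone, without resistant replicate 2 or without susceptible replicates 1 or 3.

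One family 1 gene went the other way. The myrosinase 1-like gene LOC114121545 had 2.65, 3.27 and 3.79 CPM in the resistant and 6.82, 7.33 and 8.41 CPM in the susceptible libraries, with no overlap, and fell by 1.21 on the log2 scale (SE 0.20, adjusted p = 0.00219). LOC114121420 (1.13 ± 0.41, adjusted p = 0.0605) and LOC114125515 (0.27 ± 0.26, adjusted p = 0.445) did not pass the test, and their strains overlapped. A gene outside the rule, Aphis_gossypii_newGene_2142, carries the same family 1 domain under the name of a hypothetical protein, and was picked out after its values were seen. It had 28.3, 37.8 and 37.4 CPM in the resistant and 3.56, 3.62 and 4.25 CPM in the susceptible libraries (log2 fold change 3.18 ± 0.17, adjusted p = 1.45e-05). The other gene outside the rule that shares a domain with these roles, the amino acid transport protein rBAT-like LOC114124563, has the maltases' alpha-amylase domain and was not called (0.43 ± 0.17, adjusted p = 0.0751).

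**Figure D4:**
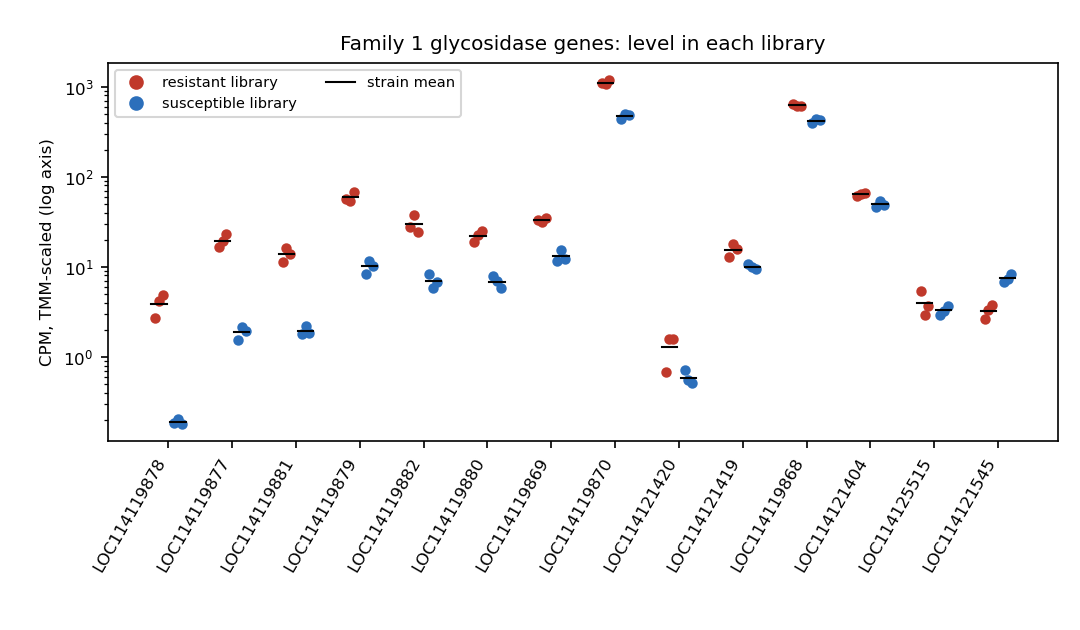
Level of each family 1 glycosidase gene (CPM, log axis) in the 3 resistant (red) and 3 susceptible (blue) libraries, with black bars at strain means, genes ordered by log2 fold change along the x axis. LOC114119870 and LOC114119868 lie highest in both strains, and LOC114121545, at the right end, is the gene whose blue points lie above its red points.

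Many of these genes sit side by side in the reference. Of 64 glycosidases, 53 matched the RefSeq table of assembly ASM2018417v2 by symbol. No source used here names the build behind the deposited table, and only the order of genes was used. Counting genes of 1 role as neighbours where at most 3 other genes lay between them, 9 maltases formed 1 run, 6 family 1 genes another, and 5 pairs were found. In the maltase run 7 of 9 genes rose, with LOC114127606 and LOC114128187 not called. LOC114127606 is the end gene of the run, and its log2 fold change of 0.30 stood beside 1.06 and 1.27 in the next genes, LOC114127611 and LOC114127615. LOC114128186, with 3.24, had 1 other gene between it and LOC114128178, with 1.28. All 6 genes of the family 1 run rose, from 0.57 in LOC114119868 to 3.39 in the end gene LOC114119877, and directly adjoining genes differed by more than the sum of their standard errors, a difference that was not tested further. The maltase pair of LOC114132278 and LOC114132272 rose by 1.77 and 1.21, and the reference lists the latter as a transcribed pseudogene. The pair LOC114119959 and LOC114119925, both beta-galactosidase genes, rose by 0.86 and 0.52.

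**Figure D5:**
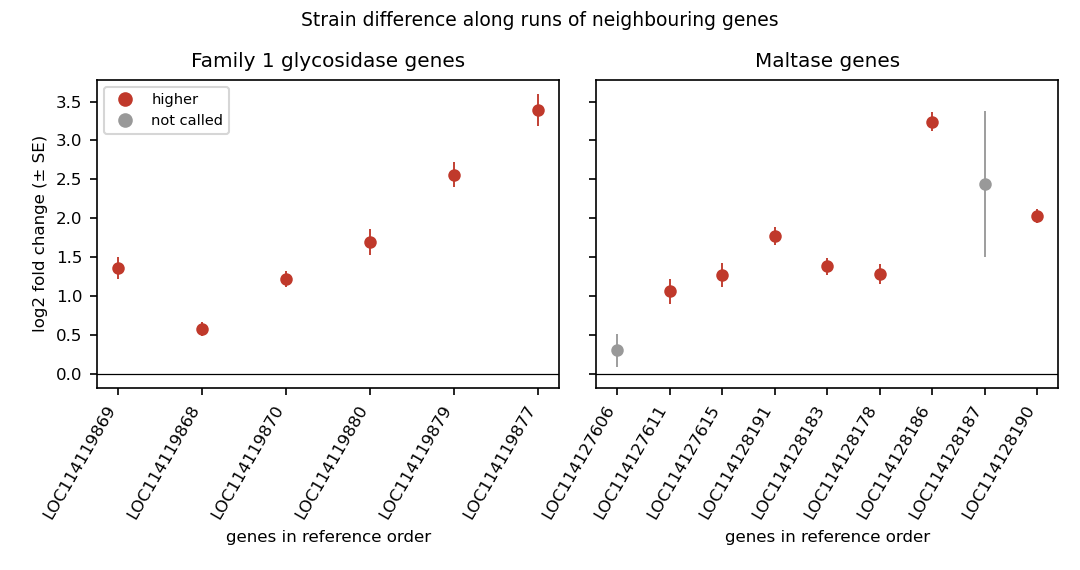
Log2 fold change (resistant over susceptible, error bars SE) on the y axis against the order of genes in the reference on the x axis, for the 6-gene run of family 1 genes and the 9-gene run of maltases; red marks genes called higher, grey genes not called. In the family 1 run LOC114119868 at 0.57 adjoins LOC114119870 at 1.22, while in the maltase run LOC114128183 at 1.38 and LOC114128178 at 1.28 lie within their errors.

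Trehalases changed less. Of 4 tested, 2 rose, neither of them 2-fold, and all 4 log2 fold changes were above 0. The most abundant, LOC114127360, had 292, 298 and 275 CPM in the resistant and 167, 153 and 172 CPM in the susceptible libraries, with no overlap (log2 fold change 0.81 ± 0.08, adjusted p = 0.00023). LOC114129251 rose by 0.60 ± 0.13, from 42.7 ± 2.46 to 64.9 ± 10.5 CPM. LOC114124624 had 67.1, 101 and 96.1 CPM against 86.6, 82.2 and 90.0, and the strains overlapped (0.03 ± 0.15, adjusted p = 0.893). Without resistant replicate 1, the lowest resistant library for this gene, all 4 were called higher. LOC114129272 was at 7.52 ± 1.21 and 5.36 ± 0.68 CPM (adjusted p = 0.0761), and LOC114127363 had too few counts to test.

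Of the 19 lysosomal and other exoglycosidases, all tested, 13 rose, 3 of them at least 2-fold. The 2 with a log2 fold change below 0, at -0.05 and -0.24, had adjusted p = 0.823 and 0.429. LOC114120405, a beta-galactosidase-like gene, had 31.5, 33.2 and 33.8 CPM in the resistant and 8.44, 9.01 and 6.29 CPM in the susceptible libraries (2.05 ± 0.16, adjusted p = 5.81e-05). The highest FPKM averaged over all libraries was that of LOC114129670, an alpha-galactosidase A-like gene of the kind that removes terminal alpha-galactose from glycolipids and other sugars. In the susceptible strain alone the lysosomal alpha-mannosidase LOC114125637 was above it, at 47.6 ± 1.2 against 39.1 ± 3.13 FPKM. LOC114129670 reached 130, 123 and 111 CPM from 42.7, 48.7 and 49.0 (1.37 ± 0.10, adjusted p = 4.48e-05). LOC114131923, a beta-glucuronidase-like gene, stood at 21.5, 17.8 and 17.3 CPM against 8.03, 8.14 and 7.19 (1.27 ± 0.15, adjusted p = 0.000394). In these 3 genes each resistant library was more than 2 times the highest susceptible one.

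The exoglycosidases below the 2-fold mark rose by smaller amounts. Beside LOC114120405, the 6 further genes with a family 35 domain, all beta-galactosidases, rose by 0.52 to 0.86 on the log2 scale, of which LOC114119924, LOC114119925 and LOC114125521 did not pass with library totals alone or without susceptible replicate 1. The first and second of these also failed without susceptible replicate 3, and LOC114119925 without resistant replicate 2. The alpha-L-fucosidase LOC114126235 rose by 0.93 ± 0.13 and the beta-hexosaminidase subunit LOC114131469 by 0.83 ± 0.15. Of the lysosomal alpha-mannosidases, LOC114130213 rose by 0.76 ± 0.11, and LOC114125637 by 0.33 ± 0.09, which did not pass with library totals alone or without resistant replicate 2 or any 1 of the susceptible libraries. The 6 that were not called were the lysosomal alpha-glucosidases LOC114131340 (adjusted p = 0.0582) and LOC114131304, the beta-glucuronidase LOC114123789 (adjusted p = 0.0543), hexosaminidase D LOC114129832, the beta-mannosidase LOC114126855 and the beta-galactosidase-like Aphis_gossypii_newGene_2169. With library totals alone 9 of the 19 rose, and without susceptible replicate 1 likewise 9. Without resistant replicate 1, 16 rose, and by DESeq2 15 rose. LOC114131340, LOC114131304 and LOC114123789 passed without resistant replicate 1. LOC114131340 and LOC114123789 passed by DESeq2 as well, and LOC114123789 also without resistant replicate 3.

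N-glycan trimming genes differed least among the roles. Of 11 tested, 4 rose, 1 fell and 6 were not called, with a median log2 fold change of 0.29, and with library totals alone 2 rose. The 4 include Aphis_gossypii_newGene_1057, which had no susceptible count and was kept for testing through the resistant libraries alone. With a CPM filter that left this locus out, 3 rose. Glucosidase II, which removes glucose from new glycoproteins in the endoplasmic reticulum, is made of a catalytic and a regulatory subunit. The catalytic subunit, neutral alpha-glucosidase AB, LOC114121369, had 176, 176 and 197 CPM in the resistant and 90.3, 93.1 and 88.9 CPM in the susceptible libraries (1.01 ± 0.08, adjusted p = 8.01e-05). For the regulatory subunit the table lists a pair of genes that went opposite ways. LOC114125085, with the highest FPKM of the role averaged over all libraries, rose from 76.6, 71.4 and 72.6 to 96.7, 104 and 119 CPM (0.54 ± 0.10, adjusted p = 0.00384; adjusted p = 0.0526 with library totals alone). LOC114121291, with a protein model marked as low quality, had 5.63, 8.56 and 7.97 CPM in the resistant and 14.3, 14.9 and 12.8 CPM in the susceptible libraries and fell by 0.92 (SE 0.18, adjusted p = 0.00594).

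The mannosyl-oligosaccharide glucosidase LOC114118986, which acts before glucosidase II, rose by 0.40 ± 0.11 (adjusted p = 0.0192, and up to 0.198 with other settings). None of the 4 genes with a family 47 mannosidase domain was called by edgeR's test with all libraries, with log2 fold changes from 0.08 to 0.29. The alpha-mannosidase 2 genes LOC114131656 and LOC114126312, Golgi enzymes, were not called by edgeR's test with all libraries (adjusted p = 0.0589 and 0.185), while the first passed by DESeq2 and without resistant replicate 1, and the second without resistant replicate 3. A further locus named for this enzyme, Aphis_gossypii_newGene_1057, had 23, 23 and 12 counts in the resistant and 0 in all susceptible libraries. Against a floor of 3 counts over the susceptible group it was at least 18.7-fold higher. This bound takes the 58 resistant counts as exact and covers counting error in the susceptible group only.

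The 11 tubulin polyglutamylases that matched by their letters alone did not follow the glycosidases. Of 10 tested, 0 rose, 3 fell and 7 were not called (edgeR's quasi-likelihood test; an unadjusted p under 0.05 was reached by those 3 alone, and DESeq2 also called 0 higher). LOC114128347, a TTLL4-like gene, had 54.0, 72.0 and 81.2 CPM in the resistant and 119, 111 and 116 CPM in the susceptible libraries and fell by 0.74 (SE 0.14, adjusted p = 0.00489). The other 2 that fell, LOC114121281 (-0.79 ± 0.24) and LOC114121021 (-0.84 ± 0.27), were at under 5 CPM. Only 1 of the falls passed when resistant replicate 2 or any 1 of the susceptible libraries was left out. Without resistant replicates 1 or 3 it was 2, and without resistant replicate 1 LOC114121767 was called higher.

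Sugars cut by these enzymes are taken up by transporters and fed into metabolism. Among 50 tested sugar transporters, 35 rose (70.0%, background 21.4%) and 2 fell (4.0%, background 14.4%). The rises included a glucose transporter 8-like gene, LOC114132090 (2.18 ± 0.24), and the trehalose transporter Tret1-like gene LOC114129755 (2.16 ± 0.20). The falls carried the same product names, glucose transporter 8-like LOC114127232 (-0.89 ± 0.17, adjusted p = 0.00427) and Tret1-like LOC114120009 (-0.44 ± 0.13, adjusted p = 0.0341). Leaving out resistant replicate 1 gave 5 falls, and library totals alone gave 4. In 41 tested genes of sugar use after cleavage (phosphorylation, trehalose and glycogen metabolism, oxidation and reduction of sugars), 24 rose (58.5%) and 2 fell (4.88%). Glycogen phosphorylase, LOC114121538, which releases glucose units from stored glycogen, went from 232, 232 and 233 CPM to 869, 692 and 622 CPM (1.65 ± 0.13, adjusted p = 7.7e-05). The number that fell among them was 0 without any 1 of the susceptible libraries and 4 without resistant replicate 1.

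Genes matched by name as acting beside the exoglycosidases and N-glycan trimming were called less often than those enzymes, a difference that was not tested. Of 29 other tested genes matched by names of lysosomal hydrolases, 14 rose (48.3%) and 1 fell (3.45%). Their median log2 fold change was 0.39. With library totals alone 7 rose. The 1 that fell, the alkaline ceramidase 3-like gene LOC114131883 (-0.76 ± 0.24), matched by the word ceramidase, and its name does not place it in the lysosome. The peptidase legumain-like LOC114125012 rose by 1.84 ± 0.13, from 335, 314 and 301 to 1344, 1024 and 1031 CPM. Of 50 further genes matched by names of N-glycan synthesis and processing, 12 rose and 3 fell, 24.0% and 6.0% against the background of 21.4% and 14.4%. These names also took in genes outside that pathway. Among the falls were GPI mannosyltransferase 4, LOC114127057 (-0.83 ± 0.16), and a peptide N-acetylglucosaminyltransferase subunit, LOC114132899 (-0.53 ± 0.09). The number of the 50 that rose ranged from 3 without susceptible replicate 3 to 22 without resistant replicate 1. It was 4 with library totals alone.

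Marker lists of tissues moved unequally between the strains. Of 39 tested gut markers (cathepsin B, aminopeptidase N, aquaporins, peritrophic proteins and proton pump subunits, the last of which other tissues also express), 29 rose and 0 fell by edgeR's test (1 at an unadjusted p under 0.05, and 1 by DESeq2), with a median log2 fold change of 0.76. Their summed level was 13812 to 17294 CPM in the resistant and 6558 to 6803 CPM in the susceptible libraries, and 2 of the 42, both cathepsin B-like, had no count in any library. In muscle 5 of 23 rose and 7 fell, in nervous system 3 of 16 rose and 4 fell, and in germline and embryo 1 of 11 rose and 0 fell. The share that rose was 74.4% in gut, 21.7% in muscle, 18.8% in nervous system and 9.09% in germline, against 21.4% of all tested genes. The share that fell was 30.4% in muscle and 25.0% in nervous system, against 14.4% of all tested genes. With 1 library left out, 2 to 7 muscle genes rose and 3 to 7 fell, 2 to 4 nervous system genes rose and 1 to 5 fell, and 0 to 3 germline genes rose. Library totals alone and the replicate block each gave 2 muscle genes that rose and 0 germline genes. Of 3 fat body and haemolymph genes 1 rose, and of 5 salivary gland genes 2 rose, with 0 falls in both. In these last 3 lists no gene was lower at an unadjusted p under 0.05 in edgeR's test with all libraries, and none by DESeq2. Leaving out 1 library gave 25 to 32 gut markers that rose and 0 to 1 that fell. It gave 1 to 2 fat body genes that rose and 0 to 1 salivary gland genes that fell. By library totals alone 26 gut markers rose and 1 fell. The part of a difference in gut tissue in the glycosidase results was not tested. Set against resistant replicates 2 and 3, resistant replicate 1 differed in the median gene of a role by 0.17 (log2) in maltases, -0.23 in family 1, -0.00 in trehalases, -0.04 in exoglycosidases, -0.17 in N-glycan trimming and -0.27 in polyglutamylases. Among the other lists it differed by 0.17 in gut markers, 0.36 in sugar transport, -0.31 in germline and -0.48 in fat body.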

How the data were processed

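RNA from pooled whole bodies was sequenced in 6 libraries, 3 per strain. Reads were trimmed with fastp 0.22.0 and aligned with HISAT2, per the submitters' processing notes. No source used here names the counter, how it treated strand or reads shared between copies, the annotation, or the build. The deposited table holds raw counts per gene, per the file headers, and these were tested. It also holds FPKM values computed by the authors, per the file headers. These were used to compare levels between genes and to describe means, sums and ratios of the strains, and were not tested. The TMM factors were not applied to them, so ratios of FPKM between strains are on another scaling than the log2 fold changes.

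Counts of the whole table were fitted with edgeR 4.0.16 in R 4.3.3 (TMM scaling, filterByExpr defaults, robust quasi-likelihood fit, strain alone). P-values were adjusted by Benjamini-Hochberg over 11149 genes. CPM values are scaled by the TMM factors, errors of log2 fold changes are standard errors, and other errors are SD. The steps were also run on counts simulated from the means and dispersions of this fit. True log2 changes of 0.5, 1 and 2 were called in 20.9%, 69.7% and 98.5% of the changed genes. Of 139 calls 14 were false. Far fewer genes were changed there than were called in the real counts. Alternatives used DESeq2 1.42.0, limma 3.58.1, other scalings and filters, a replicate block and each library left out.

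Members and lists were chosen with earlier results of these data known. Genes named in full are those changed at least 2-fold (up to 8 per role and direction), those called lower, the most abundant and the most changed of each role, and any without counts in 1 strain. Other members are named to account for the whole set. No sequence was analysed here.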

Additional observations from a re-analysis of the deposited data

How the results depend on the processing

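The 47 called genes gave 610 comparisons with the alternatives, in which the call was kept 570 times, lost 40 times and reversed 0 times. The 25 genes not called gave 323, and 17 of those passed. The number of glycosidases that rose, 42 in the main fit, was 36 to 50 with 1 library left out, 46 by DESeq2 and 43 by limma-voom. It was 36 at an adjusted p under 0.01. Of the same 42 genes, 35 to 42 were still higher with 1 library left out, and all 42 by DESeq2 and by limma-voom. Same-numbered libraries showed no large shared deviation (correlations -0.0114, -0.0299 and -0.0153). With 3 libraries per strain this cannot exclude that they were collected or prepared together. With the replicate block 42 glycosidases rose and 2 fell, and 1 call, that of LOC114121021, was lost. With library totals alone, 2 N-glycan trimming genes rose, 2 glycosidases and likewise 2 of all matched genes fell at least 2-fold, 4 genes of N-glycan processing and 7 other lysosomal hydrolases rose, and 4 sugar transporters and 4 genes of sugar use fell. With the block, 9 other lysosomal hydrolases rose, 1 sugar transporter and 0 genes of sugar use fell, and the latter was 1 with a CPM filter or with no filter. With members from Swiss-Prot text alone, 2 matched genes fell at least 2-fold and 1 glycosidase fell. Of all matched genes 3 fell at an adjusted p under 0.01, and 2 without the tubulin polyglutamylases, an alternative chosen after seeing the data. With 1 library left out, 3 to 4 matched genes fell, and 1 to 2 at least 2-fold (glycosidases alone 1 to 2). Polyglutamylases then gave 0 to 1 higher and 1 to 2 lower, and trehalases 2 to 4 higher. N-glycan trimming genes gave 3 to 6 higher. N-glycan processing gave 3 to 22 higher and 2 to 5 lower, other lysosomal hydrolases 7 to 19 higher and 0 to 1 lower, sugar transport 1 to 5 lower and sugar use 0 to 4 lower. The cause of these shifts was not tested. Genes with too few counts, 3 of the 75 matched, were not tested at this depth.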
